A study of Sus scrofa with 15 samples.

Results

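The genes described here are those of the amino acid response driven by the transcription factor ATF4, together with carriers that bring amino acids into the cell. They are 41 pig gene symbols taken by name, and the list was drawn up with earlier results of these data known. The set holds 11 regulators, 10 enzymes of amino acid and one-carbon synthesis, 10 amino acid transporters, 8 genes of tRNA charging and export, and 2 secreted or surface targets. Of the 41 genes, 39 were matched in the table of knockdown libraries and 38 in the table of overexpression libraries, and 38 were tested in each table, against 16804 genes listed in both. SLC7A5 and STC2 are not analysed here. SLC43A1 was listed in the knockdown table alone, at 0 to 0.01 FPKM, and did not pass the filter on low values.

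ATF4 is translated when the initiation factor eIF2 is phosphorylated, which happens when the kinase GCN2 senses uncharged tRNA or the kinase PERK senses misfolded protein in the endoplasmic reticulum. General protein synthesis then slows while ribosomes reach the ATF4 coding sequence, and ATF4, paired with C/EBP proteins, binds composite elements in its target genes. These targets make non-essential amino acids, import amino acids, charge tRNAs, and include regulators such as DDIT3 (CHOP) and TRIB3 that feed back on the response. Epithelial cells of the intestine use amino acids heavily as fuel and pass them on to the blood, so transport is part of what defines them.

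RNA sequencing was carried out on IPEC-J2 cells, an epithelial line from the small intestine of a newborn piglet, in 15 libraries forming 5 groups of 3, each group carrying a different lentiviral vector. Lv3NC is the control vector for knockdown, Lv133KD is directed against miR-133 and Lv143KD is labelled as a miR-143 knockdown, although the design text names miR-133 for it as well, so its target is unsettled. Lv20NC is the control vector for overexpression, and OV143 overexpresses miR-143. The labels give no time, no dose and no vector map. They are silent on what a replicate number marks and on whether replicates are separate cultures or clones, and p-values therefore describe only library-to-library spread, which may be technical. Neither table lists the miRNAs themselves, so the action of each vector was not checked.

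The values are FPKM, fragment counts scaled to gene length and library size, which allows levels of different genes to be set side by side within a library. Summed over genes, FPKM came to 486086 to 520630 in the 9 knockdown libraries. It came to 518578 to 558042 in 5 of the 6 overexpression libraries and 662022 in OV143 replicate 2, which stands apart. Values without that library are therefore given beside the differences of OV143 that rest on it. The sum is not a read total, and the depth of the libraries is unknown. Epithelial markers were high, with KRT8 at 519.95 to 887.51 FPKM and EPCAM at 266.8 to 359.04 FPKM in the knockdown libraries, but CDX2, a defining factor of intestinal epithelium, was at 0 to 0.06 FPKM there and at 0 to 0.07 FPKM in the overexpression libraries. The 6 immune markers summed to 2.41 to 3.9 FPKM in the knockdown libraries, with PTPRC at 0 in all of them, while the endothelial cadherin CDH5 was at 8.28 to 10.75 FPKM.

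Most of the set was well above the filter. In Lv3NC the mean level among tested genes ran from 11.65 FPKM for SLC7A11, the cystine carrier, to 372 FPKM for ASNS, which makes asparagine. In Lv20NC it ran from 8.71 FPKM for SLC7A11 to 430.5 FPKM for ATF4. ATF4 itself read 184.07 to 216.81 FPKM in Lv3NC and 409.46 to 456.47 FPKM in Lv20NC, but the tables were normalised separately and this difference was not tested. Reads of DDIT3 and MARS, the methionine tRNA synthetase, may be shared, because these genes overlap by 69 bases on chromosome 5 and strand use is not known. Since the libraries are bulk samples, fewer expressing cells and less RNA per cell cannot be told apart in any of the differences below.

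**Figure D1:**
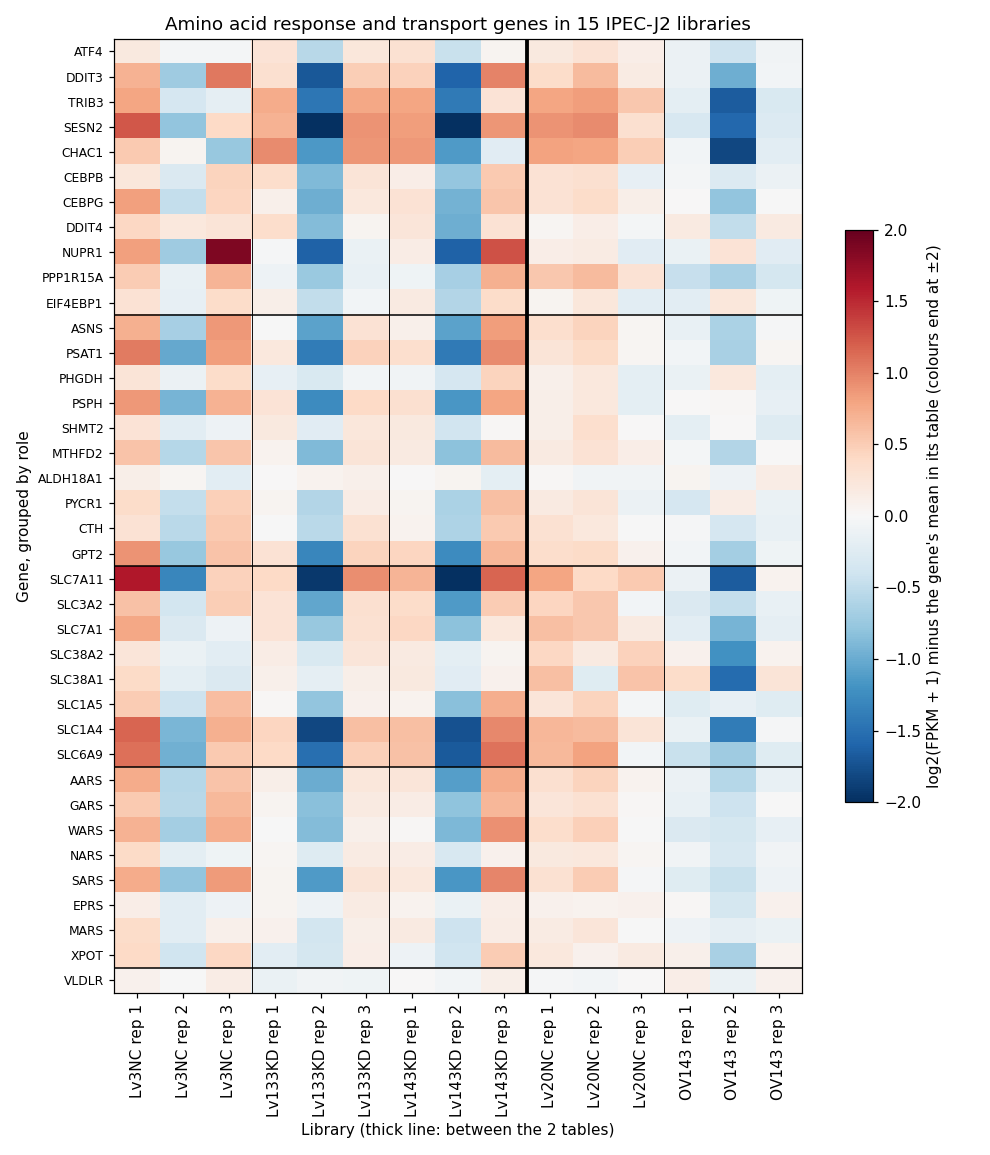
Level of each of the 38 tested genes in each of the 15 libraries, as log2(FPKM + 1) minus the gene's mean over its own table (colour; red above, blue below, colours end at 2 in either direction), with genes grouped by role and a thick line between the 2 tables. The replicate 2 libraries of Lv3NC, Lv133KD and Lv143KD are blue over most genes, and in the overexpression table OV143 is below Lv20NC over most genes.

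In the knockdown table the amino acid response followed the replicate number of a library far more than its vector. Libraries numbered 2 held low levels of most regulators, enzymes, transporters and tRNA synthetases of the set. A moderated F test of the replicate number in limma, with the vector in the model and Benjamini-Hochberg adjustment over all genes, called 34 of the 38 genes, and all 34 were lower in replicate 2 than in replicates 1 and 3. Replicate number differed widely across the transcriptome too: the same test called 36.6% of all 11645 genes, and 20.4% were called with replicate 2 lower. Replicate 2 was singled out after the values had been seen, so the direction is a description. It was the lowest library under every vector for 32 of the 38 genes, against 25.2% of all genes. The other 6 were ATF4, CHAC1, SLC38A1, SLC38A2, VLDLR and ALDH18A1.

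The median difference of replicate 2 from the mean of replicates 1 and 3 was -1.06 on the log2(FPKM + 1) scale over the 38 genes and -0.03 over all genes. Within a vector the median for the set was -0.91 in Lv3NC, -1.05 in Lv133KD and -1.24 in Lv143KD. Replicate number took up a median of 84.3% of a gene's sum of squares in the set and the vector 6.16%, where all genes had medians of 58.0% and 13.1%. The vector took the larger share for 1 gene of the set, the lipoprotein receptor VLDLR.

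Among the 11 regulators, ATF4 mRNA had the narrowest range over the 9 libraries, 1.82-fold. ATF4 read 216.81, 184.43 and 184.07 FPKM in Lv3NC replicates 1 to 3, 228.46, 128.30 and 221.52 in Lv133KD, and 233.36, 138.72 and 195.40 in Lv143KD. Replicate 2 was thus the lowest library under both knockdown vectors but level with replicate 3 in the control (adjusted p = 0.0166 for replicate number, limma F test, difference -0.51). DDIT3, the CHOP transcription factor, read 80.02, 29.56 and 103.42 FPKM in Lv3NC, 61.77, 14.45 and 69.70 in Lv133KD, and 67.89, 15.49 and 98.74 in Lv143KD. Its replicate 2 libraries lay below every other library of the table (difference -2.01, adjusted p = 0.000105).

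SESN2, a leucine-binding inhibitor of mTORC1, had the second largest difference of the set. Its level was 39.60, 8.99 and 21.69 FPKM in Lv3NC, 26.75, 3.09 and 31.19 in Lv133KD, and 29.67, 3.01 and 30.64 in Lv143KD, a 13.2-fold range (difference -2.48, adjusted p = 0.000876). NUPR1, a small chromatin-associated stress protein, read 42.22, 14.01 and 87.92 FPKM in Lv3NC, 22.98, 7 and 21.20 in Lv133KD, and 26.14, 6.97 and 57.96 in Lv143KD. Replicate 2 was lowest in each group, and replicate 3 was the highest in Lv3NC and Lv143KD but not in Lv133KD (difference -1.97, adjusted p = 0.000834).

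Not all regulators followed the same order within the control. TRIB3, a pseudokinase that dampens ATF4 activity, read 89.02, 40.20 and 45.01 FPKM in Lv3NC, 86.38, 18.09 and 87.43 in Lv133KD, and 88.83, 18.47 and 62.07 in Lv143KD. CHAC1, which degrades glutathione, read 120.44, 87.23 and 49.09 FPKM in Lv3NC, 161.92, 37.19 and 155.05 in Lv133KD, and 152.85, 37.64 and 71.17 in Lv143KD. In Lv3NC replicate 3, TRIB3 stood near replicate 2 and CHAC1 below it, in the same library where DDIT3, NUPR1 and ASNS were at their highest in the table. The replicate number was called for both genes, with differences of -1.60 (adjusted p = 0.00501) and -1.11 (adjusted p = 0.0382).

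DDIT4, another inhibitor of mTORC1, read 208.92, 180.30 and 186.89 FPKM in Lv3NC against 200.66, 85.31 and 163.13 in Lv133KD and 185.56, 79.14 and 191.02 in Lv143KD. The low replicate 2 values of DDIT4 lay under the 2 knockdown vectors, and the control libraries were close together. PPP1R15A (GADD34), the subunit that directs phosphatase to eIF2, read 71.87, 45.44 and 81.11 FPKM in Lv3NC, 46.86, 29.88 and 45.28 in Lv133KD, and 47.46, 31.49 and 83.10 in Lv143KD. Both genes were called for replicate number (adjusted p = 0.0159 and 0.00501), as were CEBPB, CEBPG and EIF4EBP1, so that all 11 regulators were.

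The synthesis enzymes were led by those of the serine pathway and by alanine and asparagine synthesis. ASNS read 445.36, 171.00 and 498.62 FPKM in Lv3NC, 272.04, 129.56 and 333.11 in Lv133KD, and 292.05, 128.63 and 487.59 in Lv143KD (difference -1.40, adjusted p = 0.000205). PSAT1 and PSPH, the later enzymes of serine synthesis, differed by -1.92 and -1.67, and GPT2, the mitochondrial alanine transaminase, by -1.66. PHGDH, the first enzyme of the same serine pathway, differed by -0.38 and SHMT2, which moves a one-carbon unit from serine in mitochondria, by -0.41. ALDH18A1, the first enzyme of proline synthesis, was the only one of the 10 enzymes not called (difference 0.08, adjusted p = 0.272), although PYCR1, the last enzyme of that pathway, was (-0.86, adjusted p = 0.00103).

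The widest range in the set belonged to a transporter. SLC7A11, which imports cystine in exchange for glutamate, read 22.95, 2.19 and 9.81 FPKM in Lv3NC, 9.34, 1.06 and 14.05 in Lv133KD, and 11.61, 0.96 and 16.55 in Lv143KD. Its highest and lowest libraries differed 23.9-fold, with the replicate 2 libraries at the bottom (difference -2.62, adjusted p = 0.000632). SLC1A4, a carrier of alanine, serine and cysteine, read 48.35, 10.68 and 35.15 FPKM in Lv3NC, 28.81, 5.25 and 32.67 in Lv133KD, and 32.70, 5.61 and 42.19 in Lv143KD (difference -2.24, adjusted p = 0.000147). The glycine carrier SLC6A9 differed by -2.08, and SLC3A2, the heavy chain that SLC7A11 needs at the membrane, by -1.28.

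The cationic amino acid carrier SLC7A1 read 72.11, 33.97 and 38.81 FPKM in Lv3NC, 50.75, 24.29 and 51.83 in Lv133KD, and 56.42, 23.32 and 48.86 in Lv143KD (difference -0.94, adjusted p = 0.00397). The system A carriers of small neutral amino acids had the smallest differences among the 8 tested transporters: SLC38A2 differed by -0.31 (adjusted p = 0.0480) and SLC38A1 by -0.30 (adjusted p = 0.0505, not called).

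Of the 8 genes of tRNA charging and export, 7 were called. SARS, the serine tRNA synthetase, read 297.84, 102.48 and 321.56 FPKM in Lv3NC, 185.03, 80.99 and 212.63 in Lv133KD, and 206.21, 78.72 and 352.75 in Lv143KD (difference -1.54, adjusted p = 0.000275). The alanine, tryptophan and glycine synthetases AARS, WARS and GARS differed by -1.33, -1.22 and -1.10. NARS, for asparagine, and MARS differed by less, at -0.38 and -0.50, and EPRS, the glutamate and proline synthetase, was not called (-0.22, adjusted p = 0.0786). VLDLR was the fourth gene not called (-0.07, adjusted p = 0.441) and had the narrowest range of the set, 1.22-fold.

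**Figure D2:**
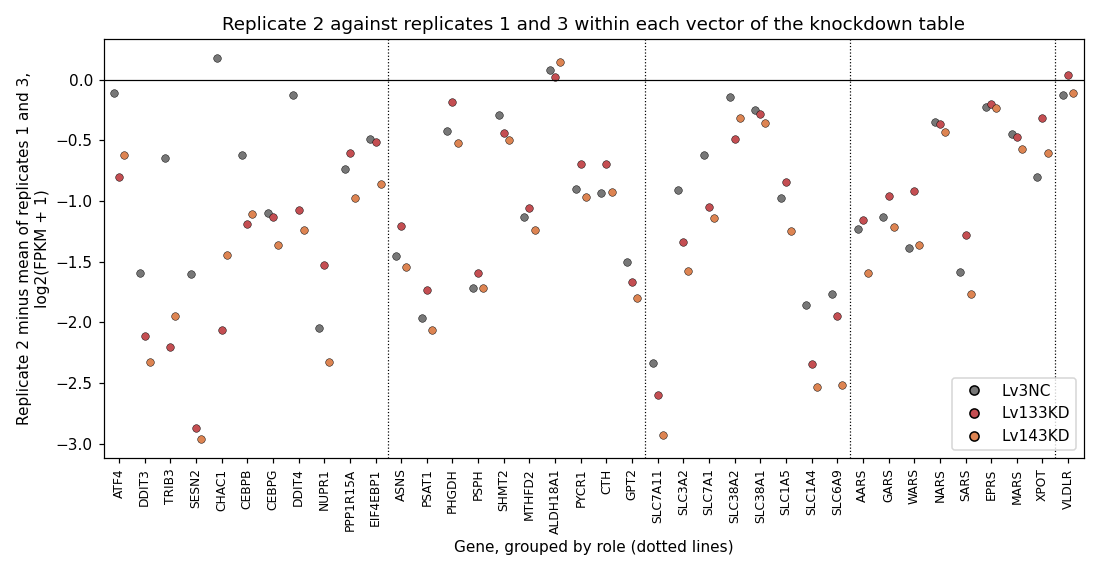
Difference of the replicate 2 library from the mean of replicates 1 and 3 on the log2(FPKM + 1) scale, for each tested gene (grouped by role) within each vector of the knockdown table, one point per vector. Points lie below 0 for nearly all genes, with medians of -0.91 in Lv3NC, -1.05 in Lv133KD and -1.24 in Lv143KD, and reach their lowest values for SESN2 and SLC7A11.

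The number of genes called for replicate number was 27 to 37 when each of the 9 libraries was left out in turn, lowest without Lv143KD replicate 2. Over all genes the count moved from 4266 to between 1445 and 6915. In the overexpression table the same F test called 0 of the 38 genes and 0.0521% of all genes, with 7 of the 38 at an unadjusted p under 0.05, against 26.2% of all genes. Leaving out 1 library there gave 3 to 31 genes of the set and 144 to 6268 of all genes, the most of the set without Lv20NC replicate 2, where 6268 of 11506 genes were called. These fits with 1 library left out leave 1 residual degree of freedom and borrow most of the spread from other genes. Without Lv20NC replicate 2, the term for number 2 rests on OV143 replicate 2 alone. Calls for replicate number in that table therefore depended on which library was in the fit, and these counts do not measure replicate number by itself.

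Beside this spread, the knockdown vectors gave no change of the set that passed the test. For Lv133KD against Lv3NC, limma called 0 of the 38 genes and 0.0172% of all genes, 0 of the 38 had an unadjusted p under 0.05 (0.867% of all genes were lower at that level), and the smallest adjusted p was 0.926. The median standard error of a log2 difference was 0.43 over the set against 0.14 over all genes. By the check described under the processing, libraries of the same number correlate, although some of different number do as well. With the number as a block that error was 0.13. The block called 0 of the 38 genes and 0.258% of all genes, while 20 of the 38 then reached p under 0.05 before adjustment, all lower in Lv133KD, against 7.45% of all genes.

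The direction was nevertheless mostly downward in Lv133KD. The log2 fold change was below 0 for 32 of the 38 genes (47.7% of all genes), and 23 were lower in all 3 pairs of equal number (16.8% of all genes). The median was -0.38 over the set and 0.01 over all genes, and by pair it was -0.44, -0.37 and -0.20, where all genes had 0.00, -0.03 and 0.07. The largest differences were those of NUPR1 (-1.25, SE 0.82, adjusted p = 0.926, and 0.0749 with the block), PPP1R15A (-0.67, SE 0.35), DDIT3 (-0.64, SE 0.79) and SLC1A4 (-0.58, SE 0.87). ATF4 differed by -0.06 (SE 0.24), and CHAC1 by 0.29 (SE 0.65) in the other direction. Groups did not overlap for 1 gene, VLDLR, at 42.92 to 44.92 FPKM in Lv133KD and 46.67 to 52.51 FPKM in Lv3NC (3.33% of all genes were separated in this direction).

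In the fit without the block the median for Lv133KD moved with the replicate 2 libraries. It was 0.06 without Lv133KD replicate 2 and -0.62 without Lv3NC replicate 2. With the block it was -0.30 to -0.43 when the libraries of each number were left out in turn. In that fit 13 of the 38 genes were called without replicate 3, where 72 genes were called in all, and 0 without either of the other numbers.

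Lv143KD against Lv3NC gave 0 called genes in the set in both fits, where 0.0172% of all genes were called without the block and 0.172% with it. The smallest adjusted p was 1.00 without the block and 0.606 with it, and before adjustment 8 of the 38 genes reached p under 0.05 with the block, all lower (2.67% of all genes), and 0 without it (0.421%). The log2 fold change was below 0 for 35 of the 38 genes (55.8% of all genes), and 5 were lower in all 3 pairs (16.4% of all genes). By pair, 36, 36 and 5 of the 38 genes were lower, against 46.8%, 66.8% and 45.5% of all genes. The medians by pair were -0.34, -0.41 and 0.10 over the set and 0.01, -0.07 and 0.02 over all genes. Groups did not overlap downward for 0 of the 38 genes (2.03% of all genes). The 4 largest differences were those of NUPR1 (-0.73, SE 0.82), DDIT4 (-0.44, SE 0.37), SESN2 (-0.41, SE 0.99) and DDIT3 (-0.40, SE 0.79). The median over the set was -0.21 and became 0.20 without Lv143KD replicate 2. With the block, 9 of the 38 genes (60 of all genes) were called without replicate 3.

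The knockdown vectors were also set against each other, and this comparison shares its libraries with both of those above. Lv133KD against Lv143KD called 0 of the 38 genes and 0% of all genes in either fit, with smallest adjusted p of 1.00 and 0.910. Before adjustment 0 of the 38 reached p under 0.05 in the lower direction without the block (0.0343% of all genes) and 1 with it (0.498%). The log2 fold change was below 0 for 30 of the 38 genes (41.8% of all genes), 9 were lower in all 3 pairs (10.4%), and 1, VLDLR, was separated downward (0.55%). The median over the set was -0.13, and by pair it was -0.10, 0.03 and -0.30, where all genes had -0.01, 0.03 and 0.05. The 4 largest differences were those of NUPR1 (-0.53, SE 0.82), CHAC1 (0.39, SE 0.65), PPP1R15A (-0.32, SE 0.35) and SARS (-0.28, SE 0.62).

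In OV143 most genes of the amino acid response had lower levels than in its control. No gene passed the test without the replicate number in the model. With it 6 of the set did, 4 regulators and 2 transporters. The groups did not overlap, with all OV143 libraries below all Lv20NC libraries, for 25 of the 38 genes, against 12.9% of all genes. No gene of the set was separated upward (8.96% of all genes). The log2 fold change was below 0 for 36 of the 38 genes (54.2% of all genes) and 29 were lower in all 3 pairs (26% of all genes). The median was -0.44 over the set and -0.02 over all genes.

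Without the block limma called 0 of the 38 genes and 0% of all genes, with 24 of the 38 at an unadjusted p under 0.05, all lower (6.9% of all genes), and a smallest adjusted p of 0.0798. With the replicate number as a block it called 6 genes, all lower, against 1.94% of all genes called and 1.29% called lower. The 6 genes were PPP1R15A, TRIB3, SESN2, CHAC1, SLC7A1 and SLC7A11. Replicate number took 0.318%, 12.0%, 8.21%, 17.4%, 9.08% and 31.6% of their sums of squares, in that order. The blocked fit leaves few residual degrees of freedom, so its standard errors also borrow spread from other genes. The vector took a median of 58.8% of the sum of squares over the set and the replicate number 16.1%, where all genes had 18.9% and 53.1%.

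The median deviation of the set from its table mean was -0.48 in OV143 replicate 2, -0.12 in replicate 1 and -0.09 in replicate 3, so the library that stands apart is also the lowest. The median difference by pair was -0.33 for number 1, -0.85 for number 2 and -0.12 for number 3, where all genes had -0.02, -0.02 and -0.01. Without OV143 replicate 2 the median over the set was -0.29, and limma without the block called 10 of the 38, with 513 genes called in all. In that comparison of 2 libraries with 3, 27 of the 38 genes were separated downward, against 23.6% of all genes. Leaving out each of the 6 libraries in turn gave 25 to 29 separated genes of the set and 14.5% to 23.6% of all genes, since smaller groups are separated more often. By role, the medians without OV143 replicate 2 were -0.30 for the regulators, -0.25 for the enzymes, -0.56 for the transporters and -0.25 for the tRNA genes. With the block, 24 of the 38 were called without number 2 (1466 genes in all) and 19 without number 3 (297 in all), in fits that leave 1 residual degree of freedom and borrow most of the spread from other genes.

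**Figure D3:**
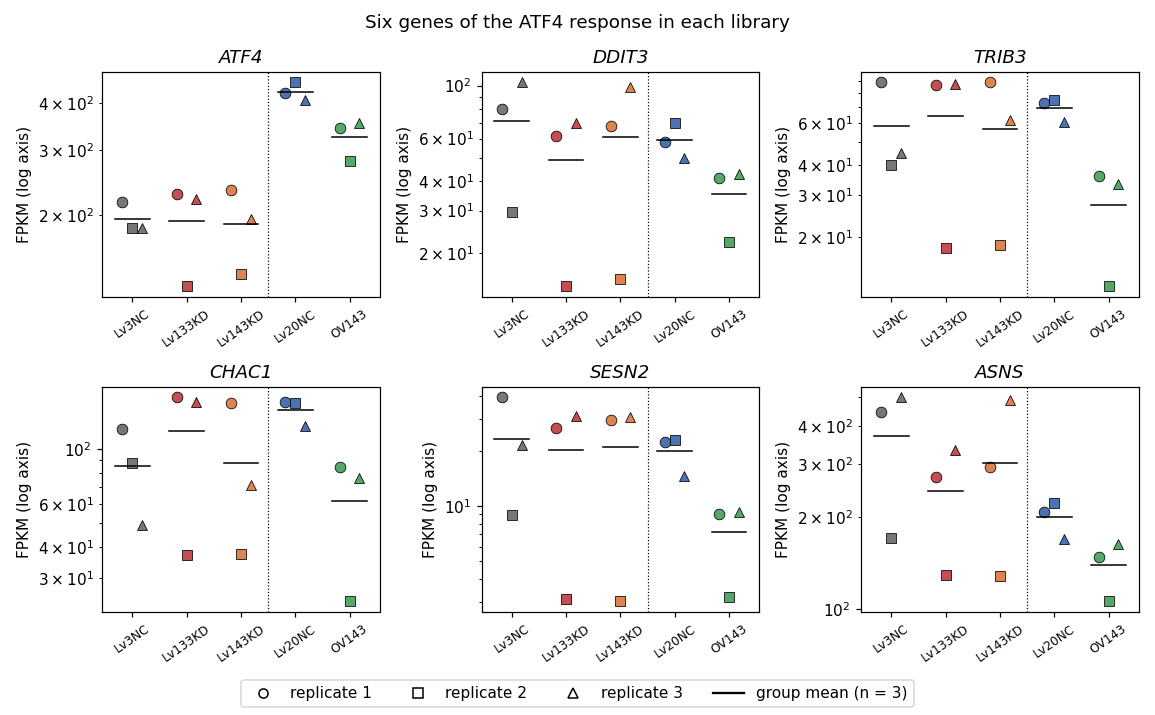
FPKM of ATF4, DDIT3, TRIB3, CHAC1, SESN2 and ASNS in each library (log axes; circle, square and triangle for replicates 1, 2 and 3; horizontal line for the mean of 3 libraries; dotted line between the 2 separately normalised tables). For all 6 genes the OV143 libraries lie below the Lv20NC libraries, and in the knockdown groups the squares are the lowest points except in Lv3NC for CHAC1 and ATF4.

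ATF4 (chromosome 5, 8742964 to 8745752 in Sscrofa11.1) read 425.62, 456.47 and 409.46 FPKM in Lv20NC replicates 1 to 3 and 342.23, 279.80 and 354.51 in OV143. The groups did not overlap, and the OV143 mean was 75.6% of the control mean. The log2 fold change was -0.41 (SE 0.13, 95% interval -0.70 to -0.12) and did not pass the test (adjusted p = 0.290, and 0.109 with the block). It was -0.30 without OV143 replicate 2 (adjusted p = 0.0675 in limma without the block).

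PPP1R15A (chromosome 6, 54172038 to 54175461), which restores translation by returning eIF2 to its active state, had the smallest p of the set. It read 66.37, 70.73 and 55.52 FPKM in Lv20NC and 32.48, 28.49 and 35.29 in OV143, so that its mean fell to 50.0% of control (log2 fold change -0.98, SE 0.13, adjusted p = 0.00802 with the block and 0.0798 without). Its 3 OV143 libraries were close to each other, and the log2 fold change was -0.90 without OV143 replicate 2.

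TRIB3 (chromosome 17, 34808273 to 34819592) had the largest log2 difference. Its level was 72.86, 74.94 and 60.79 FPKM in Lv20NC and 35.97, 12.44 and 33.34 in OV143 (log2 fold change -1.45, SE 0.36, adjusted p = 0.0221 with the block and 0.229 without). SESN2 (chromosome 6, 85321982 to 85348044) read 22.32, 23.06 and 14.54 FPKM against 9.01, 3.20 and 9.31 (-1.44, SE 0.36, adjusted p = 0.0313 with the block and 0.229 without). CHAC1 (chromosome 1, 130360510 to 130363332) read 154.30, 152.52 and 123.59 FPKM against 84.15, 24.19 and 75.96 (-1.39, SE 0.43, adjusted p = 0.0427 with the block and 0.291 without). In each of the 3 genes OV143 replicate 2 was the lowest library, and replicates 1 and 3 lay close together above it. Without that library the log2 fold changes were -0.98 for TRIB3, -1.02 for SESN2 and -0.83 for CHAC1, with adjusted p = 0.000642, 0.00643 and 0.00172 in limma without the block.

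DDIT3 read 58.04, 69.48 and 49.96 FPKM in Lv20NC and 40.92, 22.28 and 42.80 in OV143, with no overlap (log2 fold change -0.77, SE 0.25, adjusted p = 0.312, and 0.0918 with the block). Without OV143 replicate 2, its lowest library, the difference was -0.48 (adjusted p = 0.0446 in limma without the block). CEBPG, a partner of ATF4 on DNA, had means of 17.34 ± 1.58 FPKM (SD, n = 3) in Lv20NC and 12.15 ± 3.69 FPKM (SD, n = 3) in OV143, a difference of -0.52 that was -0.26 without OV143 replicate 2. CEBPB had 60.86 ± 10.8 and 49.06 ± 4.02 FPKM (SD, n = 3 each), and its groups overlapped.

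Other regulators of the response overlapped between the groups. DDIT4 read 261.46, 280.90 and 247.05 FPKM in Lv20NC and 289.22, 181.46 and 288.67 in OV143, so that 2 of the 3 OV143 libraries lay above every control library. Its log2 fold change was -0.09 (SE 0.19) and became 0.14 without OV143 replicate 2. NUPR1 read 17.67, 18.02 and 13.43 FPKM against 14.55, 19.57 and 13.54, with a log2 fold change of -0.05 (SE 0.17) that was 0.01 when each library was centred on its own median. EIF4EBP1, the repressor of cap-dependent translation, differed by -0.05 (SE 0.16). Over the 11 regulators the median was -0.52, and 7 were separated downward.

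All 8 tested transporters had lower means in OV143 than in Lv20NC, 7 of them were separated and 2 were called with the block. Their median log2 fold change of -0.79 was the lowest of the roles. SLC7A1 (chromosome 11, 6538053 to 6604654), the carrier of arginine and lysine, read 39.72, 38.12 and 29.50 FPKM in Lv20NC and 22.17, 13.20 and 22.86 in OV143 (-0.88, SE 0.22, adjusted p = 0.0348 with the block and 0.229 without). SLC7A11 (chromosome 8, 88608083 to 88690589) read 10.22, 7.55 and 8.36 FPKM against 5.03, 1.06 and 5.83 (-1.13, SE 0.42, adjusted p = 0.0438 with the block and 0.370 without). OV143 replicate 2 was the lowest library for both. Without it SLC7A1 differed by -0.63 and SLC7A11 by -0.59 (adjusted p = 0.0135 and 0.0213 in limma without the block).

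SLC1A4 read 25.61, 25.23 and 19.26 FPKM in Lv20NC and 14.39, 5.37 and 15.62 in OV143 (-1.04, SE 0.35, adjusted p = 0.322, and 0.0686 with the block). Its difference was -0.60 without OV143 replicate 2 (adjusted p = 0.0182 in limma without the block). The mean of the glycine carrier SLC6A9 went from 9.34 ± 2.99 to 4.30 ± 0.87 FPKM (SD, n = 3 each), with adjusted p = 0.0527 in limma with the block and 0.0484 in the fit without the block and without OV143 replicate 2. The heavy chain SLC3A2 went from 85.38 ± 17.7 to 54.88 ± 6.26 FPKM and the glutamine carrier SLC1A5 from 147.0 ± 24.6 to 107.2 ± 3.73 FPKM (SD, n = 3 each), both separated and neither passing the test. The exception to separation was SLC38A1, at 18.94, 10.12 and 18.55 FPKM in Lv20NC and 16.07, 3.56 and 14.76 in OV143, where replicate 2 was the low library of each group and every pair was lower (-0.61, SE 0.50 without the block and 0.18 with it). Without OV143 replicate 2 the difference of SLC38A1 was 0.01, and that of SLC38A2 went from -0.70 to -0.27.

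The synthesis enzymes had a median of -0.32, with 5 of 10 separated and none called. ASNS read 208.21, 223.77 and 169.46 FPKM in Lv20NC and 148.15, 105.73 and 162.84 in OV143 (-0.54, SE 0.18, adjusted p = 0.325, and 0.115 with the block), and its difference was -0.36 without OV143 replicate 2 (adjusted p = 0.0967 in limma without the block). GPT2 and PSAT1 differed by -0.54 and -0.45 (-0.34 and -0.24 without OV143 replicate 2) and were separated, as were MTHFD2 and CTH. MTHFD2 went from -0.40 to -0.21 without that library, and CTH from -0.34 to -0.26. PHGDH and PSPH, which lie on either side of PSAT1 in serine synthesis, differed by -0.08 each (SE 0.15 and 0.13), and ALDH18A1 by 0.07 (SE 0.10). Other differences grew when OV143 replicate 2 was left out. PHGDH was then at -0.20, near PSAT1, with PSPH at -0.11 and ALDH18A1 at 0.13. SHMT2 went from -0.30 to -0.38 and PYCR1 from -0.21 to -0.33.

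Of the 8 tRNA genes, 6 were separated downward, with a median of -0.35 and none called. SARS read 177.15, 203.53 and 141.30 FPKM in Lv20NC and 120.92, 104.98 and 133.37 in OV143 (-0.53, SE 0.16, adjusted p = 0.283, and 0.0954 with the block). SARS differed by -0.44 without OV143 replicate 2 (adjusted p = 0.0812 in limma without the block). AARS and WARS differed by -0.55 and -0.54 (-0.40 and -0.50 without OV143 replicate 2, where WARS was called at adjusted p = 0.0486 in limma), while EPRS (-0.16) and the tRNA exporter XPOT (-0.32) overlapped between the groups and were at -0.02 and -0.08 without that library. VLDLR differed by 0.06 (SE 0.10).

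**Figure D4:**
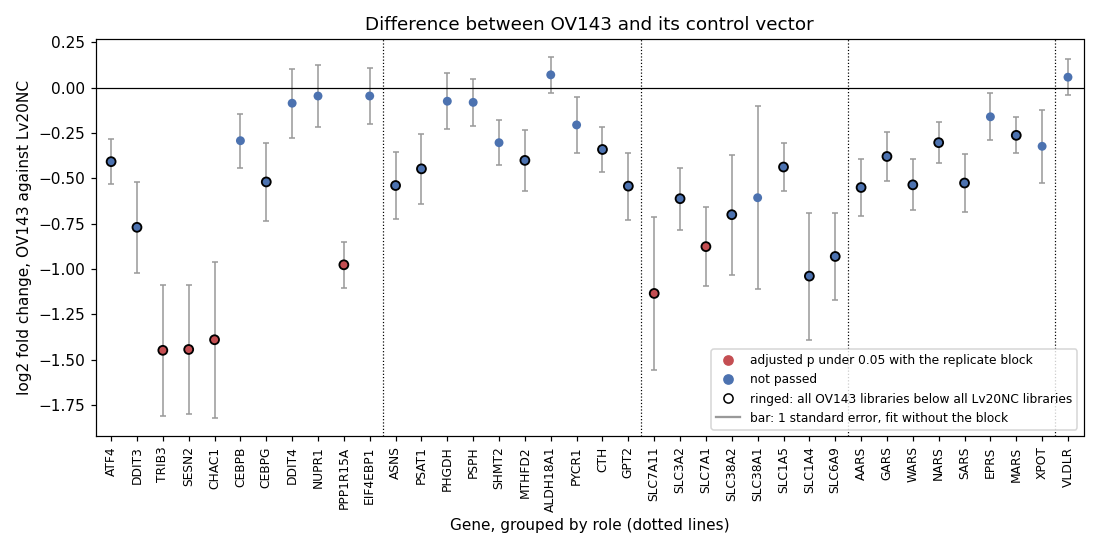
Log2 fold change of OV143 against Lv20NC for each of the 38 tested genes, grouped by role, with bars of 1 standard error from the fit without the block; red points passed an adjusted p under 0.05 with the replicate block, and a black ring marks genes whose groups do not overlap. The 6 red points are PPP1R15A, TRIB3, SESN2, CHAC1, SLC7A1 and SLC7A11, and 25 genes are ringed.

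Markers of other cell types were low in this comparison as well. Immune markers summed to 2.05 to 3.07 FPKM in Lv20NC and 2.31 to 3.69 in OV143 over 5 listed genes, and endothelial markers to 6.81 to 7.07 and 5.29 to 6.83 over 4. The sums of 6 fibroblast and muscle markers did not overlap, at 4.47 to 4.7 FPKM in Lv20NC and 5 to 6.72 in OV143. Most of each sum came from the muscle filament gene DES, at 2.05 to 3.88 FPKM over the 6 libraries, and the collagen gene COL1A1, at 1.7 to 2.39 FPKM. In that list the defining fibroblast genes DCN and PDGFRA stayed at 0 to 0.04 and 0 to 0.01 FPKM. The part of these markers in the differences above was not tested.

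Genes near the set in the same pathway were followed in 6 further lists. Other targets of ATF4 had mostly lower levels in OV143 too, with a median of -0.47. Of 17 tested, 10 were separated downward (12.9% of all genes) and 1 upward (8.96% of all genes). Without OV143 replicate 2 the median of these targets was -0.30, with 10 separated downward (23.6% of all genes) and 3 upward (share of all genes not computed). With the block 5 of the 17 were called, all lower, against 1.29% of all genes called lower. Without the block none of them was called. GDF15, a secreted stress hormone, read 25.72, 23.5 and 18.62 FPKM in Lv20NC and 12.6, 9.62 and 12.21 in OV143 (-0.92, SE 0.15, adjusted p = 0.00990 with the block and 0.124 without). CBS, which makes cystathionine from homocysteine and serine, had means of 18.31 ± 2.69 and 11.66 ± 0.713 FPKM (SD, n = 3 each; adjusted p = 0.0235 with the block). The angiogenic factor VEGFA had 64.66 ± 4.20 and 41.65 ± 6.30 FPKM (SD, n = 3 each; adjusted p = 0.0310 with the block), and the other called genes were BBC3 and JDP2.

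Medians of the next 4 lists were nearer 0. Over all genes 12.9% were separated downward, 8.96% upward, and 1.94% were called with the block. Of 13 aminoacyl-tRNA synthetases outside the set, 4 were separated downward and 1 upward, with a median of -0.10 and none called. Of 14 other amino acid transporters, 4 were separated downward and 2 upward, with a median of -0.06, and 1, the cationic carrier SLC7A2 (named here as the only one called), passed with the block (-0.74, adjusted p = 0.0356; -0.44 without OV143 replicate 2). The 14 eIF2 kinases and factors had a median of -0.04 with 1 called, PPP1R15B, the constitutive counterpart of PPP1R15A, at 24.1 ± 1.33 FPKM in Lv20NC and 15.25 ± 4.89 FPKM in OV143 (SD, n = 3 each; adjusted p = 0.0463 with the block). The difference of PPP1R15B was -0.68, and -0.40 without OV143 replicate 2. Its adjusted p was 0.318 in limma without the block, a fit that called no gene of these 4 lists. The 15 genes of amino acid sensing by mTORC1 had a median of 0.02, with 2 separated downward and 3 upward.

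Chaperones of the endoplasmic reticulum, which answer to the ATF6 and XBP1 branches of the unfolded protein response, had mostly higher levels in OV143. Of 15 genes, 9 were separated upward (8.96% of all genes) and 0 downward (12.9% of all genes). Their median was 0.26, and none was called in either fit of all 6 libraries. The chaperone median was 0.24 without OV143 replicate 2, with 12 separated upward and 1 downward. In limma without the block and without that library, HSPA5, HSP90B1 and PDIA4 were called higher. Their adjusted p was 0.0389, 0.0412 and 0.0359, where 513 genes were called in all. Smaller groups are separated more often, and the share of all genes separated upward without that library was not computed. The disulfide isomerase PDIA4 read 210.18, 222.97 and 221.01 FPKM in Lv20NC and 273.67, 276.96 and 275.01 in OV143 (0.34, SE 0.09, adjusted p = 0.106 with the block). CALR, a lectin chaperone, had means of 467.7 ± 15.7 and 583.1 ± 20.6 FPKM (SD, n = 3 each; adjusted p = 0.134 with the block). In the knockdown table none of the genes in the 6 lists was called in any comparison of vectors. The F test for replicate number there called 12 of 18 other ATF4 targets (median difference of replicate 2 of -0.75) and 9 of 15 chaperones (-0.32), as well as 7 of 13 other tRNA synthetases (-0.0047), 5 of 13 eIF2 kinases and factors (0.01), 4 of 12 other transporters (0.05) and 3 of 15 mTORC1 genes (0.02), beside 36.6% of all genes.

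**Figure D5:**
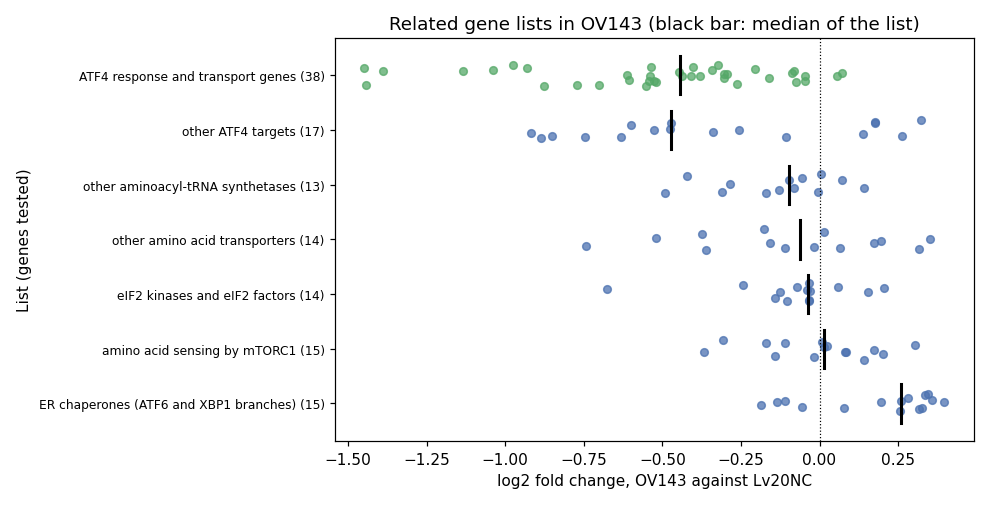
Log2 fold change of OV143 against Lv20NC for every tested gene of the 38-gene set and of 6 related lists, one point per gene, with a black bar at the median of each list and the number of genes tested in brackets. The set and the other ATF4 targets have medians of -0.44 and -0.47, 4 lists lie near 0, and the chaperones have a median of 0.26.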

How the data were processed

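Per the file headers, the authors deposited FPKM values per gene, in one table of 9 knockdown libraries and another of 6 overexpression libraries. The build was Sscrofa11.1, per the submitters' processing notes. For the aligner, counting tool, annotation and strand use the entry is: not given in the sources used here. NCBI Gene numbers were looked up in RefSeq's Sscrofa11.1 gene list, which gave a symbol for 18618 of 19000 and 16949 of 17001 genes, and the coordinates (1-based). Depth is unknown, so precision is given as SD and standard error.

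Fold changes are on the log2(FPKM + 1) scale, where changes of low genes come out too small. The genes reaching 1 FPKM in 3 or more libraries (11645 and 11506) were fitted by table with limma 3.58.1 in R 4.3.3, with trended empirical Bayes variance, two-sided tests, Benjamini-Hochberg adjustment over all genes tested, and a threshold of 0.05. All 3 knockdown groups shared 1 fit. Fits were also run on simulated data with independent noise and a shift of replicate 2 in a small part of the genes. Such data lack the broad replicate differences seen here, so no conclusion is drawn from that run. Separated groups are those with no overlap between their libraries.

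Between libraries of the same number, deviations from group means correlated at 0.27 to 0.85 in the knockdown table. In the overexpression table they correlated at 0.23 to 0.72. Every one was over the pairing limit of 0.1, so blocked values are given where they change a call. Libraries of different number correlated at -0.87 to 0.38 and at -0.68 to 0.54, so some of those passed the limit too. Lv20NC replicate 3 correlated with OV143 replicate 1 at 0.54, against 0.23 for Lv20NC replicate 1. The numbers are therefore not established as pairs. No 2 libraries held identical values. The 41 genes, the related lists and the tests were chosen with earlier results of these data known. Genes given in every library were ATF4, DDIT3, TRIB3, ASNS, SESN2 and CHAC1, every called gene, and the 4 with the largest difference in each comparison at a mean of at least 5 FPKM. SLC38A1 was added after its values were seen. A search of promoter sequences was not run, since no promoter sequences were used here.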

Additional observations from a re-analysis of the deposited data

How the results depend on the processing

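Alternatives were a pseudocount of 0.1, no filter, a filter at 5 FPKM, centring each library on its median, the replicate block, and leaving out libraries. Of 76 summary values under settings that keep all libraries, 64 were kept and 12 moved, and of the values of single genes 118 were kept, 6 passed the test with the block and 1 changed sign (NUPR1 in OV143, 0.0106 with centring). The genes called in all for Lv133KD numbered 1 without the filter, 0 with centring and 30 with the replicate block. For Lv143KD they numbered 1, 1 and 20. For OV143 they numbered 2 with centring and 223 with the block, of which 6 belonged to the set. The genes called for replicate number in the overexpression table numbered 2 with a pseudocount of 0.1, 0 without the filter and 0 at 5 FPKM. Apart from those 6, the block changed no call in the set. The cause of these moves was not tested. FPKM keeps no read total, so what depth limits is unknown.

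Counts of separated genes and of genes called for replicate number with a library left out, and the values of all listed genes without OV143 replicate 2, were chosen after seeing the data. Leaving out 1 library without the block gave 0 genes called for Lv133KD and Lv143KD and 0 to 513 for OV143, with 0 to 10 of the set. With the replicate block, leaving out 1 number gave 1 to 72 genes for Lv133KD (0 to 13 of the set), 2 to 60 for Lv143KD (0 to 9) and 297 to 1466 for OV143 (19 to 24), with 705 without number 1. The set's median without the block ran from -0.62 to 0.0621 for Lv133KD, -0.52 to 0.20 for Lv143KD, -0.55 to 0.19 for Lv133KD against Lv143KD and -0.54 to -0.29 for OV143. Replicate number was called for 1445 to 6915 genes in the knockdown table, and for 144 to 6268 genes and 3 to 31 of the set in the overexpression table. The fits of the overexpression table with 1 library left out leave 1 residual degree of freedom.

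Of the single genes followed with each library left out in turn, these changed sign without 1 library. For Lv133KD, DDIT3 ran from -1.17 to 0.0645 and SLC1A4 from -1.20 to 0.20. For Lv143KD, NUPR1 ran from -1.41 to 0.050, SESN2 from -0.95 to 0.57 (0.0631 without Lv3NC replicate 1, and 0.0375 with the block without number 2) and DDIT3 from -0.93 to 0.38. For Lv133KD against Lv143KD, NUPR1 ran from -1.30 to 0.14, CHAC1 from -0.0897 to 1.08, PPP1R15A from -0.64 to 0.0436 and SARS from -0.87 to 0.21. For OV143, NUPR1 ran from -0.20 to 0.053 (0.062 with the block without number 1) and DDIT4 from -0.20 to 0.14 (0.18 with the block without number 2). SLC38A1, which was followed without OV143 replicate 2 only, went from -0.61 to 0.0085. Some genes of the related lists changed sign without that library as well.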
